A study of Mus musculus with 8 samples.

Results

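The Gimap genes encode the GTPases of the immunity-associated protein family, and 8 of the 17580 genes in the deposited counts belonged to it: Gimap1, Gimap3, Gimap4, Gimap5, Gimap6, Gimap7, Gimap8 and Gimap9. They were chosen by symbol, matched to the identifiers of the 8 library tables, and all 8 were found. The libraries came from 4T1 tumours, a mouse mammary carcinoma line grown under the skin of Balb/c mice for 10 days. For each of 4 conditions, 6 tumour pieces from different mice were pooled and digested for 1 h with a protease of Bacillus licheniformis. The suspension was divided into aliquots A and B, each giving 1 droplet library. The variables crossed were digestion at 37C or at 4C and digestion with actinomycin D (2 nM), an inhibitor of RNA synthesis, or without it. The groups, with 2 libraries each, were 37C with inhibitor, 37C without inhibitor, 4C with inhibitor and 4C without inhibitor. All suspensions shared the line, the host strain, the enzyme and the removal of red cells, debris and dead cells. Digestion at 37C used an instrument with heaters and digestion at 4C one without, so instrument and temperature cannot be told apart. A and B are aliquots of 1 pooled suspension, so p-values measure only the spread between aliquots.

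Gimap proteins are GTP-binding proteins found mainly in lymphocytes, where they sit on organelle membranes and influence survival. Mice that lack Gimap5 lose naive T cells and NK cells, and mice without Gimap1 in lymphocytes lose mature T and B cells. The genes are related in sequence and lie side by side in the genome.

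On the GRCm38 build the 8 members occupied a cluster of 124 kb on chromosome 6, from 48647234 to 48770851, with 6 genes on the plus strand and 2 on the minus strand. From the left end the order was Gimap8, Gimap9, Gimap4, Gimap6, Gimap7, Gimap1, Gimap5 and Gimap3. Each held at least 1 copy of the P-loop, the stretch that grips the phosphates of GTP, and Gimap8 held 3. The coding DNA around these loops is shown because it makes visible how far members of the family differ in their shared core, and which pair are close copies. Each stretch of 54 bases is read 5′ to 3′ from the longest coding transcript of the GENCODE M21 reference, which is from another mouse strain than the host, and the capitals mark the 24 bases of the P-loop (a glycine, any 4 residues, then glycine, lysine and serine or threonine).
Gimap8, first loop: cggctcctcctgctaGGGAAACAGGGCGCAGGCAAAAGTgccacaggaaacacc
Gimap8, second loop: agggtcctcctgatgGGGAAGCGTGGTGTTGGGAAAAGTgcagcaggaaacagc
Gimap8, last loop: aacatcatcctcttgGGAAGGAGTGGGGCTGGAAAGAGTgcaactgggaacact
Gimap4: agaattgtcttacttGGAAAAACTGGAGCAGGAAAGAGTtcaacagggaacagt
Gimap7: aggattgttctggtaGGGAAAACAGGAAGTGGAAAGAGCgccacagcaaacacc
Gimap5: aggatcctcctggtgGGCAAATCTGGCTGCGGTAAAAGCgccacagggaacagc
Gimap3: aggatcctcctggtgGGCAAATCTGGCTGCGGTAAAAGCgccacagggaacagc

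Gimap5 and Gimap3 differed at 0 of the 24 P-loop bases, whereas Gimap4 and Gimap7 differed at 6 of 24. Over the aligned coding sequence, Gimap3 and Gimap5 were identical at 90.7% of 895 bases. Pairs with Gimap8 stood at 72.9% to 76.1%. Gimap8 has 2064 coding bases against 879 in Gimap7, and bases set against gaps were left out, so its pairs cannot be ranked with the rest. The highest remaining pair without Gimap8 was Gimap7 and Gimap9, at 68.8% of 852. Gimap3 and Gimap5 shared 190 different words of 50 bases, out of 1904 in the transcripts of Gimap5 and 2528 in those of Gimap3. None of these words lay in the last 500 bases of a coding transcript of either gene, where 3′ libraries draw most reads, but the sources used here give no strand or multi-mapping setting for the counting. Gimap1 is the least certain member. Of its exon bases, 36.0% also belonged to the antisense transcript Gimap1os or to Gm28053, a read-through transcript on the same strand; the last 500 exon bases were not shared. Gm28053 also overlapped 3.48% of the exon bases of Gimap7 and 3.69% of those of Gimap5.

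The submitters' tables listed 2990 to 3000 barcodes a library, with 433245 to 801510 UMIs (unique molecular identifiers, each standing for 1 captured transcript) at 37C and 55698 to 186002 at 4C. The authors' annotation placed 654 of these barcodes in 4 types, with 154 T cells, 66 NK cells, 109 macrophages and 325 tumour cells. Pooled over libraries, each list of markers summed highest in the type it names. Single genes of the tumour epithelial list were split. Krt8, Krt18, Krt7, Krt19 and Cldn4 were highest in tumour cells. Cdh1, Epcam and Cldn7 had 0 UMIs there, with 9 of Cdh1 in macrophages and 2 of Epcam in T cells. T-cell markers summed to 133 UMIs per 10000 in T cells and 0.446 in tumour cells, and the NK-cell markers to 187 in NK cells and 0.532 in tumour cells. The NK class also held 266 T-cell marker UMIs (51.4 per 10000), among them 62 of Trbc1. The T class held 62 B-cell marker UMIs (5.11 per 10000), of which 42 were Ighm. Any 2 libraries shared 4 to 19 barcode sequences, and 1 of the shared barcodes was annotated in both.

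The family was a lymphocyte family in these tumours. Its summed level was 28.6 ± 7.12 UMIs per 10000 UMIs in T cells and 52.2 ± 18.5 in NK cells, against 0.791 ± 1.77 in macrophages and 0.907 ± 0.591 in tumour cells (mean ± SD over 8 libraries each). The T-cell libraries lay between 18.1 and 40.7 and the NK-cell libraries between 32.6 and 82.8, so these overlapped. The value of 82.8 came from 11 family UMIs in 3 NK cells. Every T and NK value stood above the highest macrophage value, 5.11, and the highest tumour-cell value, 2.20. These levels describe the authors' classes, which were made from the same cells, and no test was run on them.

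Among single cells, 108 of 154 T cells and 62 of 66 NK cells held at least 1 family UMI (70.1% and 93.9%), compared with 6 of 109 macrophages and 36 of 325 tumour cells (5.50% and 11.1%). The median cell held 504 UMIs in T cells, 599 in NK cells, 1133 in macrophages and 1359 in tumour cells, so the non-lymphoid shares came from deeper cells. With every cell thinned to 200 UMIs, a family UMI remained in 39.9% of T cells, 68.8% of NK cells, 3.13% of macrophages and 2.29% of tumour cells (mean of libraries). At least 2 different members were found in 70 T cells and 47 NK cells, with at most 6 members in a T cell. No macrophage had 2 members, and 6 tumour cells did.

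**Figure D1:**
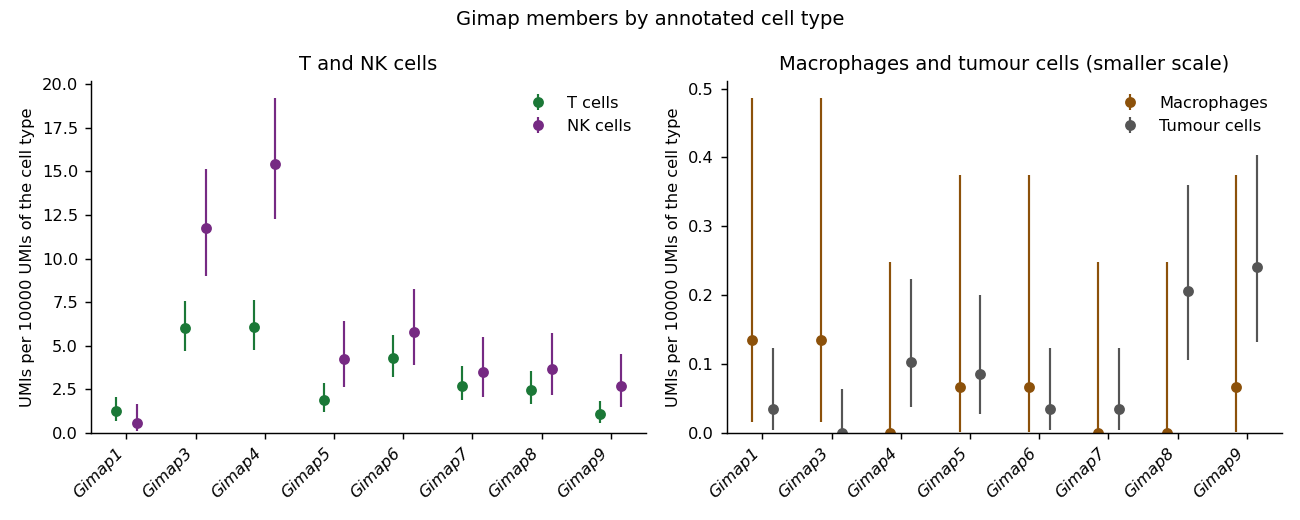
UMIs of each member per 10000 UMIs of the cell type (y axes, with different scales in the 2 panels), pooled over the 8 libraries, for T and NK cells (left) and macrophages and tumour cells (right). Points are pooled levels and bars are exact Poisson 95% intervals, which cover counting error only; Gimap4 and Gimap3 lead in both lymphocyte classes, and the highest macrophage or tumour-cell point is Gimap9 in tumour cells, at 0.240.

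The 8 members were far from equal. Gimap4, which speeds the death of T cells, and Gimap3, linked in mice to the segregation of mitochondrial DNA variants within tissues, were the most abundant. Gimap4 stood at 8.90 UMIs per 10000 in T and NK cells together and Gimap3 at 7.74, from 154 and 134 of the 560 family UMIs there. Gimap6, reported to bind the autophagy protein Gabarapl2, followed at 4.74. Gimap7, whose human counterpart hydrolyses GTP as a dimer, Gimap8, the member with 3 GTPase domains, and Gimap5, the survival factor, lay close together at 2.95, 2.83 and 2.60. Their exact Poisson intervals overlapped (2.19 to 3.87 for Gimap7, 2.09 to 3.74 for Gimap8, 1.90 to 3.48 for Gimap5), so these neighbours were not ordered at this depth. Gimap9 at 1.56 and Gimap1 at 1.04 were the lowest, and their intervals overlapped too. UMIs were counted at the 3′ end, so these levels need no correction for transcript length.

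Gimap4 and Gimap3 stood higher in NK cells than in T cells by more than their counting intervals. Gimap4 averaged 17.0 ± 7.49 UMIs per 10000 in NK cells and 7.44 ± 3.35 in T cells, and Gimap3 averaged 12.5 ± 6.41 in NK cells and 6.23 ± 1.95 in T cells (SD over 8 libraries). Pooled, Gimap4 reached 15.5 in NK cells (12.3 to 19.2) and 6.10 in T cells (4.79 to 7.66). The library ranges of Gimap4 still overlapped, at 7.23 to 30.1 in NK cells and 2.86 to 14.1 in T cells. Those of Gimap3 overlapped too, at 3.84 to 22.2 in NK cells and 4.32 to 10.3 in T cells. The value of 30.1 came from 4 UMIs in 3 cells. Gimap1 went the other way, with 3 UMIs in NK cells, or 0.579 per 10000, and 15 in T cells, or 1.24 per 10000, and its intervals overlapped.

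Within T cells, those with a Cd8a or Cd8b1 UMI and no Cd4 UMI (21 cells) held 20.5 family UMIs per 10000, and those with Cd4 and no Cd8 UMI (43 cells) held 23.7. Exact Poisson intervals were 15.5 to 26.7 and 19.3 to 28.9, so a difference was not detectable at this depth. Most T cells (88 of 154) showed neither gene; they were shallower, with a median of 398 UMIs, and held 29.6 per 10000. By this split Gimap8 had 1 UMI in the Cd8 cells and 11 in the Cd4 cells, with overlapping intervals of 0.00928 to 2.04 and 1.30 to 4.67 per 10000.

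The few family UMIs of tumour cells were mixed differently from those of lymphocytes. Tumour cells held 43 family UMIs among 582389, of which 14 were Gimap9, 12 Gimap8, 6 Gimap4 and 5 Gimap5. In T and NK cells Gimap9 made up 4.82% of family UMIs and Gimap8 8.75%. Gimap3, which supplied 23.9% of lymphocyte family UMIs, was at 0 in all 325 tumour cells, which allows a share of up to 0.923% of cells with a UMI, for counting error only. Unannotated barcodes under 50 UMIs had 23.0% Gimap3 and 33.1% Gimap4 in their 1046 family UMIs, beside 23.9% and 27.5% in T and NK cells. In the same small barcodes Gimap8 made up 10.8% and Gimap9 5.07% of family UMIs, beside 27.9% and 32.6% in tumour cells. Whether Gimap8 and Gimap9 transcripts in tumour-cell barcodes come from those cells was not tested. Macrophages held 7 family UMIs in all, none of them Gimap4, Gimap7 or Gimap8.

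The first comparison addressed whether digestion at 37C, at which enzymes and cells are active, changes the family relative to digestion at 4C. In the summed counts of all annotated cells, 7 members passed the filter on low counts and 4 of them fell at 37C (edgeR quasi-likelihood test over 3391 genes, Benjamini-Hochberg adjusted p under 0.05). Of all genes tested in that comparison, 1.24% were called lower and 2.74% higher. The 4 were Gimap4, Gimap8, Gimap7 and Gimap3. Gimap6, Gimap9 and Gimap5 had negative fold changes that missed the threshold, and Gimap1 was too sparse to test, with 22 UMIs in annotated cells. The filter asked for a set level in at least 2 libraries. Gimap7, Gimap8 and Gimap9 met it only through 4C libraries, so their being tested and their lower level at 37C are linked.

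Gimap4 had 163 and 64.8 CPM (counts per 10⁶, scaled by the trimmed mean of M-values) at 37C with inhibitor and 224 and 192 CPM at 37C without it, against 602 and 797 CPM at 4C with inhibitor and 302 and 354 CPM at 4C without it. The 37C and 4C libraries did not overlap. Its log2 fold change was -1.65 ± 0.30 (SE; edgeR adjusted p = 0.00180). Gimap8 had 52.2 and 38.9 CPM at 37C with inhibitor and 79.8 and 30.7 CPM at 37C without it, against 251 and 247 CPM at 4C with inhibitor and 116 and 275 CPM at 4C without it. These also did not overlap, and the log2 fold change was -2.13 ± 0.45 (edgeR adjusted p = 0.00819).

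Gimap7 had 6.52 and 13.0 CPM at 37C with inhibitor and 120 and 61.5 CPM at 37C without it, against 301 and 165 CPM at 4C with inhibitor and 279 and 59.0 CPM at 4C without it. Here 1 library at 4C without inhibitor lay below both 37C libraries without it, and the 2 libraries at 37C with inhibitor stood far below all others, on 1 and 2 UMIs. The log2 fold change was -2.57 ± 0.59 (edgeR adjusted p = 0.0131). Gimap3 had 130 and 64.8 CPM at 37C with inhibitor and 232 and 207 CPM at 37C without it, against 201 and 632 CPM at 4C with inhibitor and 209 and 275 CPM at 4C without it. The groups overlapped, and its log2 fold change of -1.19 ± 0.33 only just passed (edgeR adjusted p = 0.0463). That call was lost in 10 of 16 alternatives, and without aliquot B of 4C with inhibitor the log2 fold change was -0.43 (edgeR adjusted p = 0.745; range over the alternatives 6.48e-12 to 0.745).

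For the members that missed the threshold, the log2 fold changes were -1.29 ± 0.38 for Gimap6 (edgeR adjusted p = 0.0609), -2.01 ± 0.62 for Gimap9 (0.0741) and -0.59 ± 0.61 for Gimap5 (0.705). The count of 4 moved with single libraries. Without aliquot B of 37C without inhibitor, only Gimap4 passed, and without aliquot B of 4C with inhibitor only Gimap4 and Gimap7 passed. With A and B summed to 4 suspensions, Gimap4 and Gimap8 passed. When all libraries were thinned to the total of the smallest, none did, and Gimap4 then had an edgeR adjusted p of 0.0761.

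The contrast was also run with every barcode of a library summed, whether annotated or not. This gave more counts but took in a different mix of barcodes. All 8 members were then tested and all 8 were lower at 37C, in a comparison that called 7.98% of 7515 genes lower and 9.18% higher. Here Gimap1 and Gimap9 passed the same filter only through 4C libraries. The log2 fold changes ran from -1.66 ± 0.27 for Gimap5 (edgeR adjusted p = 2.93e-05) to -2.77 ± 0.28 for Gimap7 (edgeR adjusted p = 3.57e-09). Gimap4, the best counted, had 105 and 113 CPM at 37C with inhibitor and 216 and 174 CPM at 37C without it, against 1091 and 942 CPM at 4C with inhibitor and 694 and 685 CPM at 4C without it. Its log2 fold change was -2.51 ± 0.16 (edgeR adjusted p = 3.34e-13). Gimap1 had 11.2 and 12.6 CPM at 37C with inhibitor and 29.8 and 15.1 CPM at 37C without it, against 88.0 and 45.4 CPM at 4C with inhibitor and 54.0 and 61.3 CPM at 4C without it, and a log2 fold change of -1.88 ± 0.47 (edgeR adjusted p = 0.00450). In such summed libraries fewer lymphocytes, less Gimap RNA per lymphocyte and a different mix of barcodes cannot be told apart. Unannotated barcodes of 500 or more UMIs held 1066693 UMIs at 37C and 22990 at 4C. Those under 50 UMIs held 248476 UMIs at 37C and 172730 at 4C. The part of this mix in the fold changes was not tested.

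**Figure D2:**
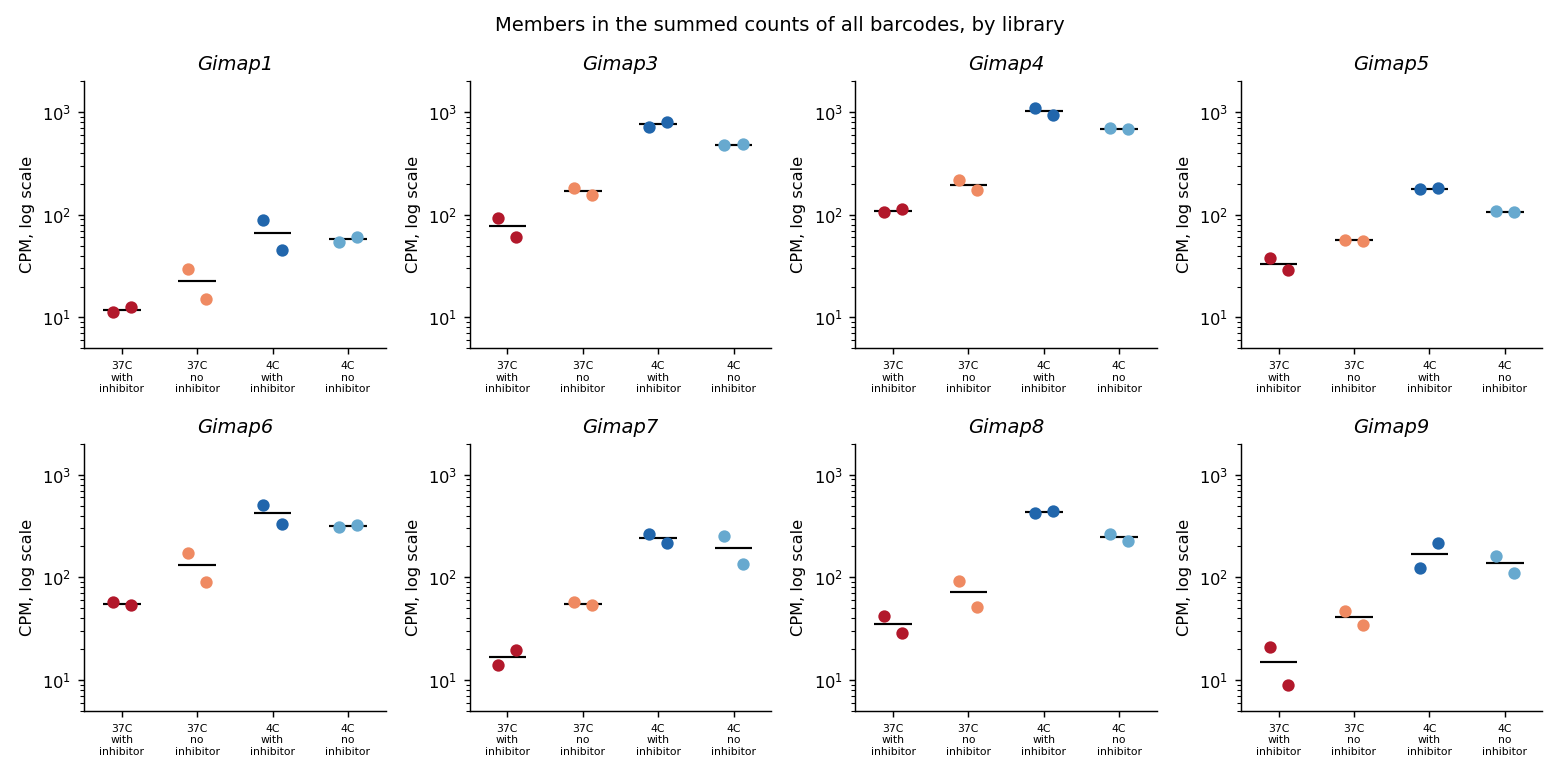
CPM of each member (y axes, log scale) in the summed counts of all barcodes, for the 2 libraries of each group (points) with their mean (line). In every panel the 4 libraries at 37C lie below the 4 libraries at 4C, and the 2 at 37C with inhibitor are the lowest group.

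Genes that mark lymphocytes moved with the family. In all barcodes, 15 of 16 T-cell markers and 9 of the 9 NK-cell markers tested fell at 37C, as did 16 of 18 genes of lymphocyte quiescence and homing. Of all genes tested there, 7.98% were called lower and 9.18% higher. The median log2 fold change was -1.62 for the T-cell markers, -2.15 for the NK-cell markers, -1.97 for the quiescence and homing genes and -2.46 for the 8 Gimap members, beside 0.05 for all genes tested. S1pr1, the receptor that lets T cells leave lymphoid tissue, had a log2 fold change of -3.90 ± 0.52 (edgeR adjusted p = 1.30e-06), and Tcf7, a transcription factor of naive and memory T cells, one of -1.92 ± 0.32 (edgeR adjusted p = 4.56e-05). The chemokine receptor Ccr7 did not pass, at 0.07 ± 0.74 (edgeR adjusted p = 0.970). Macrophage markers went the opposite way, with 9 of 9 tested higher at 37C. Among annotated cells, 4 of 16 T-cell markers, 2 of 6 NK-cell markers and 4 of 13 quiescence and homing genes fell, and 9 of 9 macrophage markers rose. The shares over all genes there were 1.24% lower and 2.74% higher.

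Reported partners of the family were called about as often as genes in general. Of 11 genes for such partners and for survival regulators, 1 fell and 1 rose at 37C in all barcodes, with a median log2 fold change of -0.08. Of all genes in that comparison, 7.98% were called lower and 9.18% higher. Bcl2, an anti-apoptotic protein that several Gimap proteins are reported to bind, had a log2 fold change of -1.44 ± 0.22 (edgeR adjusted p = 1.57e-05). Hspa8, a heat-shock cognate chaperone, had one of 1.26 ± 0.44 (edgeR adjusted p = 0.0463). Gabarapl2, the partner of Gimap6, did not pass, at -0.49 ± 0.28 (edgeR adjusted p = 0.244). Of the 40 genes within 250 kb of the cluster, 5 had enough counts in all barcodes; 1 rose, Tmem176b, and 1 fell, Gimap1os, the antisense transcript of Gimap1.

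The number of lymphocytes differed between temperatures. Of the annotated cells, T and NK cells made up 24.0% ± 12.8 in the 37C libraries and 54.0% ± 7.27 in the 4C libraries (SD, n = 4 each), and of the annotated UMIs 16.4% ± 9.27 at 37C and 32.8% ± 5.63 at 4C. Neither measure overlapped between temperatures. At 37C the share of UMIs was 13.6% and 5.63% in the libraries with inhibitor and 27.8% and 18.6% in those without it. At 4C it was 30.1% and 40.9% with inhibitor and 31.8% and 28.3% without it. The log2 ratio of mean UMI shares was -1.0. Over the same libraries the family stood at 5.07 ± 2.55 UMIs per 10000 annotated UMIs at 37C, against 14.6 ± 4.94 at 4C, a log2 ratio of -1.53. Neither ratio was tested.

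Within lymphocytes the difference was smaller. Per 10000 UMIs of T and NK cells, the family stood at 29.4 and 29.0 at 37C with inhibitor and 28.2 and 27.8 at 37C without it, against 48.7 and 51.2 at 4C with inhibitor and 31.6 and 32.0 at 4C without it. The 2 libraries at 4C with inhibitor were the highest. Family UMIs behind these levels numbered 80 and 32 at 37C with inhibitor and 124 and 85 at 37C without it. At 4C they numbered 34 and 93 with inhibitor and 53 and 59 without it. Counting error was not estimated for single libraries, and the SDs below do not include it separately. The means were 28.6 ± 0.73 at 37C and 40.9 ± 10.5 at 4C, a log2 ratio of -0.51. This ratio was -0.77 with inhibitor and -0.18 without it. The mix of T and NK cells, which differ in family level, was not the same in each group. NK-cell and T-cell UMIs numbered 12438 and 25790 at 37C with inhibitor, and 18772 and 55741 at 37C without it. At 4C they numbered 9815 and 15323 with inhibitor, and 10746 and 24460 without it. The part of this mix in the ratios was not tested.

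The direction depended on the measure of level. Counted per cell, the family was higher at 37C, with 3.18 ± 0.71 UMIs per T or NK cell at 37C and 2.01 ± 0.51 at 4C, with overlap between libraries. Depth moved with this measure, since median UMIs per T or NK cell were 852 ± 125 in 37C libraries and 398 ± 61.6 in 4C libraries. With each cell thinned to 200 UMIs the level was 0.585 ± 0.176 at 37C and 0.852 ± 0.102 at 4C, and libraries of the 2 temperatures overlapped. At least 1 family UMI was present in 80.3% ± 7.17 of T and NK cells at 37C and 74.6% ± 5.76 at 4C.

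**Figure D3:**
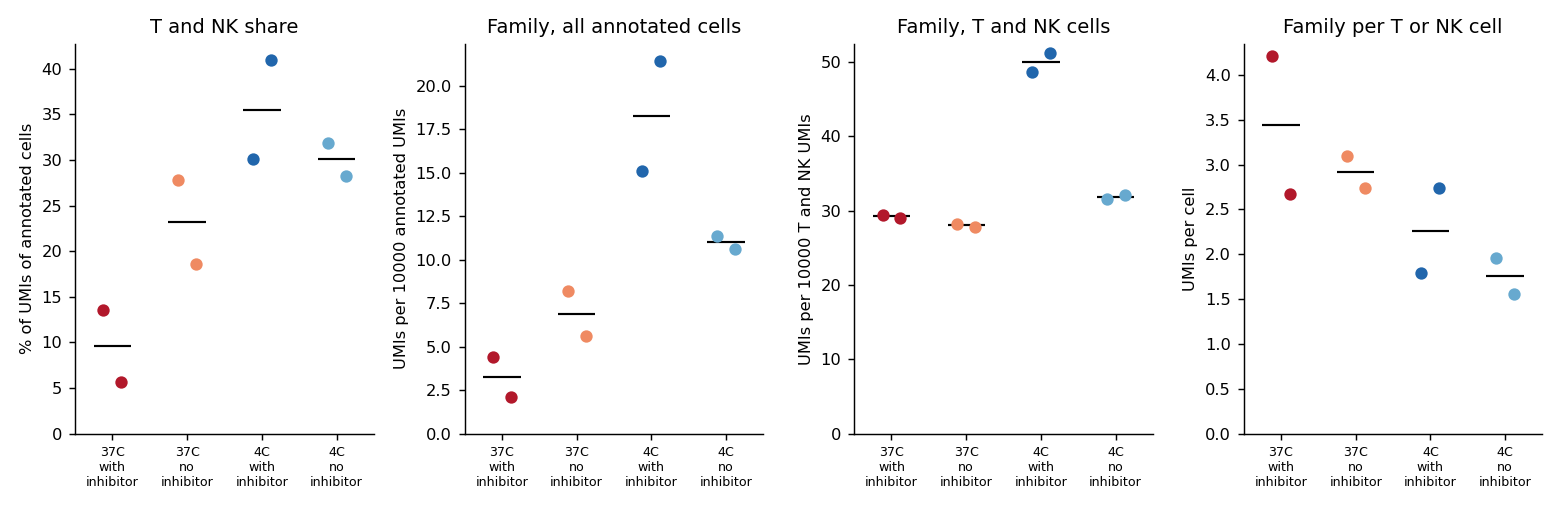
From left to right, the share of annotated UMIs in T and NK cells, the family per 10000 annotated UMIs, the family per 10000 T and NK UMIs, and family UMIs per T or NK cell (y axes), for the 2 libraries of each group (points) with their mean (line). The first 2 panels separate 37C from 4C. In the next the 4C libraries with inhibitor (48.7 and 51.2) lie above the other 6 (27.8 to 32.0), without counting error shown. In the last the means at 37C are higher while libraries of the 2 temperatures overlap.

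A test within lymphocytes called no member. In the summed counts of T and NK cells, 0 of the 7 members tested passed at 37C against 4C (edgeR over 1732 genes), where 0.635% of genes were called higher and 0.231% lower. At an unadjusted p under 0.05 there were 2 members, and DESeq2's Wald test called 0 as well. Gimap7 had 53.0 and 231 CPM at 37C with inhibitor and 467 and 389 CPM at 37C without it, against 1086 and 491 CPM at 4C with inhibitor and 1047 and 163 CPM at 4C without it. These overlapped, and the log2 fold change was -1.51 (95% interval -2.71 to -0.32; edgeR adjusted p = 0.266). Gimap9 had 159 and 0 CPM at 37C with inhibitor and 200 and 48.7 CPM at 37C without it, against 181 and 819 CPM at 4C with inhibitor and 349 and 163 CPM at 4C without it, with a log2 fold change of -1.62 (-3.04 to -0.21; edgeR adjusted p = 0.353). These were the 2 members with an unadjusted p under 0.05, and they rested on 51 UMIs for Gimap7 and 27 for Gimap9. The log2 fold change of Gimap7 was -0.61 without aliquot A of 4C without inhibitor and -0.94 without aliquot A of 37C with inhibitor. That of Gimap9 was -3.48 without aliquot A of 37C with inhibitor.

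The better counted members had narrower intervals. Gimap3 had 1059 and 1157 CPM at 37C with inhibitor and 967 and 1314 CPM at 37C without it, against 724 and 1883 CPM at 4C with inhibitor and 611 and 1143 CPM at 4C without it. Its log2 fold change was -0.03, with a 95% interval of -0.70 to 0.64. Gimap4 had 1324 and 1041 CPM at 37C with inhibitor and 934 and 1119 CPM at 37C without it, against 2173 and 2293 CPM at 4C with inhibitor and 1134 and 1306 CPM at 4C without it. Its log2 fold change was -0.57 (-1.16 to 0.02; edgeR adjusted p = 0.504), and the 4C libraries with inhibitor were the 2 highest. Gimap8 (-0.90), Gimap6 (-0.32) and Gimap5 (0.12) had intervals that included 0. Of the partners and survival regulators, 1 of 8 fell in T and NK cells, Mcl1, an anti-apoptotic protein, at -1.69 ± 0.43 (edgeR adjusted p = 0.0374), and 0 of 15 quiescence and homing genes passed, with 6 at an unadjusted p under 0.05.

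Markers of other cell types were also counted in these sums. Macrophage markers gave 34 UMIs in T and NK cells at 37C and 1 at 4C, and B-cell markers 62 at 37C and 6 at 4C. By library, B-cell markers ranged from 0.735 to 12.1 UMIs per 10000 at 37C and from 0 to 1.79 at 4C. The part of these other cell types in the member values was not tested. T-cell markers ranged from 110 to 147 UMIs per 10000 in T and NK cells at 37C and from 71.5 to 115 at 4C. NK-cell markers ranged from 46.3 to 76.8 at 37C and from 47.3 to 109.6 at 4C. By class, the family stood at 23.2 ± 3.86 UMIs per 10000 at 37C and 33.9 ± 5.23 at 4C in T cells, with no overlap, and at 48.2 ± 13.7 at 37C and 56.2 ± 23.9 at 4C in NK cells, with overlap (SD, 4 libraries each).

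**Figure D4:**
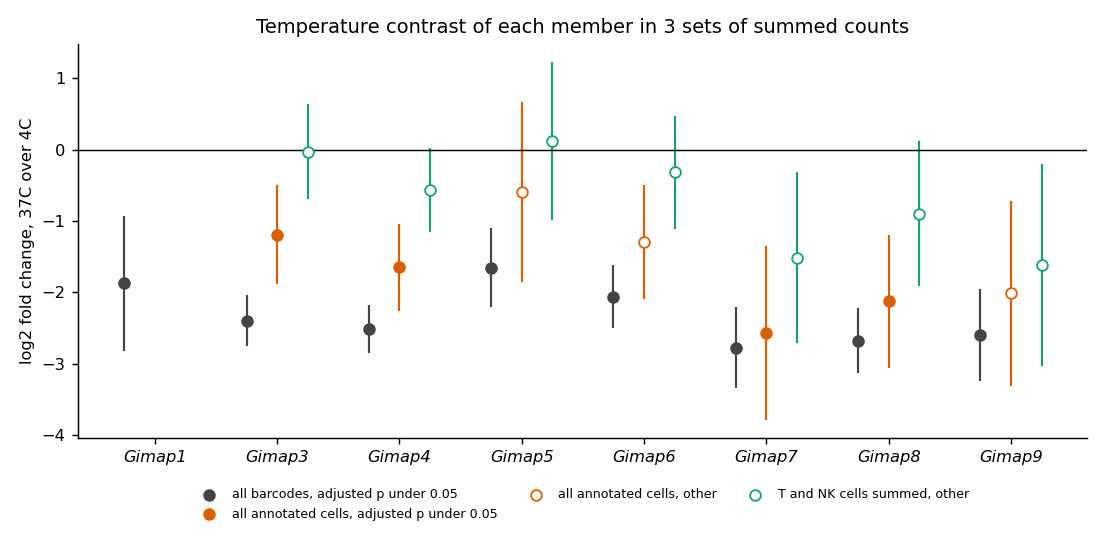
Log2 fold change of each member at 37C over 4C (y axis) with its 95% interval (bars), in the summed counts of all barcodes, of all annotated cells and of T and NK cells; filled points had an edgeR adjusted p under 0.05. All 8 members are filled and below 0 in all barcodes, 4 are filled in annotated cells, and none is filled in T and NK cells.

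The temperature difference was then taken apart by inhibitor. With inhibitor, 3 members fell at 37C in all annotated cells (edgeR; 0.796% of genes called lower, 1.00% higher): Gimap4 at a log2 fold change of -2.64 ± 0.42 (adjusted p = 0.00136), Gimap3 at -2.23 ± 0.49 (adjusted p = 0.0170) and Gimap7 at -4.30 ± 0.95 (adjusted p = 0.0170). Without aliquot B of 4C with inhibitor none passed, and without either aliquot of 4C without inhibitor 5 did. Without inhibitor, edgeR and DESeq2 each called 0 members in annotated cells (0.0885% of genes called lower, 0.973% higher); 1 member, Gimap8, had an unadjusted p under 0.05. The difference between these 2 fold changes is the interaction of temperature and inhibitor. Over annotated cells it called 0 members and 0 genes in edgeR and 0 members in DESeq2, and 4 members had an unadjusted p under 0.05. In T and NK cells 0 members were called by edgeR or DESeq2 with inhibitor, without it or in the interaction; without inhibitor 0.751% of genes were higher and 0.115% lower, and in the other 2 contrasts 0% of genes. The members with an unadjusted p under 0.05 there numbered 3 with inhibitor, 0 without it and 0 in the interaction.

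In all barcodes the interaction called 3 members, Gimap3, Gimap4 and Gimap8 (0.985% of 7515 genes were called lower and 0.173% higher). All 8 members were lower at 37C with inhibitor (5.70% of genes called lower, 4.88% higher) and 6 without it, all but Gimap1 and Gimap5 (1.92% lower, 2.73% higher). Gimap3 had 92.5 and 61.0 CPM at 37C with inhibitor and 182 and 157 CPM at 37C without it, against 722 and 795 CPM at 4C with inhibitor and 478 and 485 CPM at 4C without it. Its fold change at 37C against 4C was -3.29 ± 0.26 with inhibitor and -1.51 ± 0.24 without it on the log2 scale, and the interaction was -1.78 ± 0.35 (edgeR adjusted p = 0.00539). Gimap4 gave -1.39 ± 0.32 (edgeR adjusted p = 0.0208) and Gimap8 -1.80 ± 0.44 (edgeR adjusted p = 0.0311). Gimap7, at -2.05 ± 0.54, missed the threshold (edgeR adjusted p = 0.0514). Of the T-cell markers, 6 of 16 were called lower in the interaction, with a median of -1.58, beside -1.67 for the members and 0.06 for all genes.

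The fold changes with actinomycin D were negative at 37C and positive at 4C in all barcodes. At 37C it called 4 members lower in all barcodes, Gimap3, Gimap4, Gimap6 and Gimap7 (2.59% of genes were called lower and 0.812% higher). Gimap7 had 14.0 and 19.7 CPM at 37C with inhibitor, against 57.2 and 53.8 CPM at 37C without it, a log2 fold change of -1.72 ± 0.40 (edgeR adjusted p = 0.00678). Gimap6 had 57.5 and 53.9 CPM at 37C with inhibitor, against 174 and 90.4 CPM at 37C without it, and -1.22 ± 0.29 (edgeR adjusted p = 0.00826). In the same libraries T and NK cells were 17.8% and 10.7% of annotated cells with inhibitor, against 40.4% and 27.0% without it. In annotated cells the inhibitor at 37C called 0 members in edgeR and in DESeq2, beside 1.06% of genes lower and 0.147% higher, with 4 members at an unadjusted p under 0.05. Without either aliquot of 4C without inhibitor, Gimap7 passed. In T and NK cells the inhibitor at 37C called 0 in both tools, beside 0.520% of genes lower and 0.115% higher, with Gimap7 alone at an unadjusted p under 0.05 (log2 fold change -1.87 ± 0.91).

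At 4C all 8 members had positive fold changes in all barcodes, from 0.11 ± 0.68 for Gimap1 to 0.83 ± 0.30 for Gimap8, and none passed (edgeR; 0.0266% of genes called higher, 0% lower), with 3 members at an unadjusted p under 0.05. In all barcodes Gimap8 had 422 and 443 CPM at 4C with inhibitor, against 262 and 228 CPM at 4C without it. Gimap4 in all barcodes had a log2 fold change of 0.55 ± 0.23, with 1091 and 942 CPM at 4C with inhibitor, against 694 and 685 CPM at 4C without it. In annotated cells at 4C, edgeR and DESeq2 called 0 of 7 members with inhibitor against without it, edgeR called 0% of genes, and 1 member had an unadjusted p under 0.05. In T and NK cells at 4C, Gimap4 had 0.87 ± 0.42 and an unadjusted p of 0.0431, the only member under 0.05, while edgeR and DESeq2 called 0 of the 7 tested.

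Annotated cells held 31.0% ± 6.32 of a library's family UMIs at 37C and 22.5% ± 7.73 at 4C. Of all UMIs they held 31.4% ± 4.81 at 37C, like the family's share, and 41.3% ± 5.23 at 4C. Barcodes under 50 UMIs, none of them annotated, held 358 family UMIs at 37C and 688 at 4C. Their family level was 13.4 ± 5.41 per 10000 UMIs at 37C and 43.4 ± 9.62 at 4C, with no overlap (7.52 to 19.9 at 37C, 31.8 to 54.3 at 4C). Annotated T and NK cells, for comparison, held 28.6 ± 0.73 at 37C and 40.9 ± 10.5 at 4C. T-cell marker UMIs in these small barcodes stood at 26.1 per 10000 at 37C and 42.1 at 4C. In unannotated barcodes of 500 or more UMIs the family was at 0.769 ± 0.380 at 37C (4 libraries) and 6.22 ± 4.49 at 4C (3 libraries had such barcodes).

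**Figure D5:**
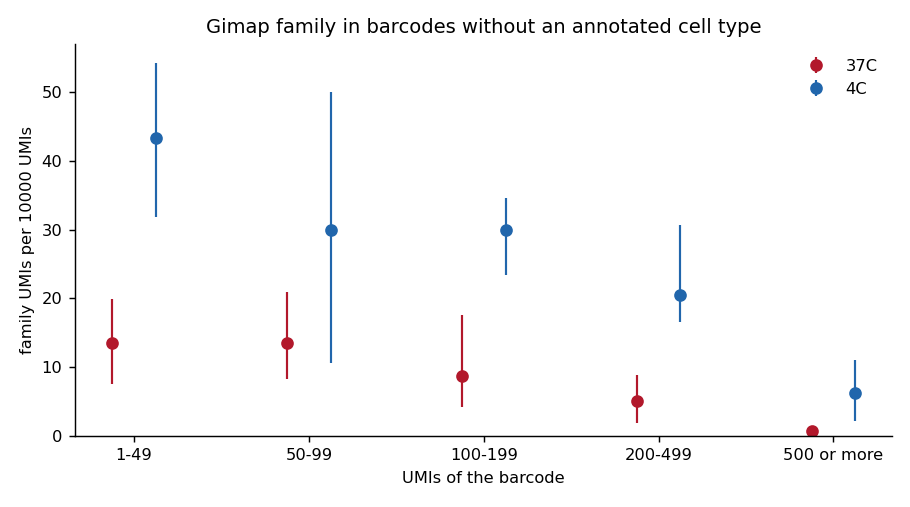
Family UMIs per 10000 UMIs (y axis) in barcodes without an annotated type, by the UMIs of the barcode (x axis); points are means over libraries and bars run from the lowest to the highest library. Barcodes under 50 UMIs stand at 13.4 at 37C and 43.4 at 4C, and barcodes of 500 or more UMIs at 0.769 at 37C and 6.22 at 4C.

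Over the 16 sums of group and cell type, the genes outside the family whose level followed it most closely were named by Pearson r among 1694 genes with at least 100 UMIs. They were Trbc1, Ms4a4b, Ifngr1, Nkg7, Gzmb, Ets1, Thy1, AW112010, Ctla2a and Ccl5, with r from 0.97 for Trbc1 to 0.91 for Ccl5. The 16 points share 4 cell types and 4 suspensions, and no p is given. Trbc1 and Thy1 mark T cells, Nkg7 and Gzmb belong to cytotoxic granules, Ms4a4b is a T-cell membrane protein, and Ets1 is a lymphocyte transcription factor. In these classes Trbc1 was not confined to T cells, with 62 UMIs among 51771 in NK cells and 113 among 121314 in T cells. These genes were chosen over the same groups and cell types, so no separate test of their change with temperature is given. Trbc1, Nkg7, Gzmb and Ms4a4b also belong to the marker and homing lists counted above.

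Since the members moved together in all barcodes, the 250 bases before each gene's start were read for 4 motifs on both strands, from RefSeq on GRCm38.p6. The RUNX core TGTGGT was found before 3 of the 8 genes, Gimap1, Gimap4 and Gimap7, and before 14.0% of all 32851 promoters. The KLF motif CCACACC was found before Gimap3 and before 6.52% of all promoters. The exact letters CCGGAAG, for ETS, and CTTTGAA, for TCF/LEF, were found before none of the 8, and before 6.91% and 4.46% of all promoters. Each motif was searched as these letters only, so variant sites were not counted and may be present. Those of Gimap7 (chr6:48718371-48718620, plus strand) and Gimap3 (chr6:48770852-48771101, minus strand) are shown, as members that fell at 37C in annotated cells, 5′ to 3′ on the strand of the gene with the motif in capitals; in both it lies on the opposite strand and reads as its reverse complement.
Gimap7: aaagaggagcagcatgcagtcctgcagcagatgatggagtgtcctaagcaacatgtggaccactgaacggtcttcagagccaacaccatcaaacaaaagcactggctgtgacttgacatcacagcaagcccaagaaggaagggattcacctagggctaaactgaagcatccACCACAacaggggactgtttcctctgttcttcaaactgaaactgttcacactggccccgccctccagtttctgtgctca
Gimap3: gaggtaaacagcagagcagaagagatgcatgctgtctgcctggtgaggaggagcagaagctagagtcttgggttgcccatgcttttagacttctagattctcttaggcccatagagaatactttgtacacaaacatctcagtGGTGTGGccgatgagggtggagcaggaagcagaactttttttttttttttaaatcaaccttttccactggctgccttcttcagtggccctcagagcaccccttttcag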

How the data were processed

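Gene expression was measured in 8 droplet 3′ libraries (SureCell, ddSEQ) of 4T1 tumour suspensions. Per the submitters' processing notes, UMI-tools, STAR 2.7.1a, featureCounts 1.6.0, SAMtools and Seurat were used on GRCm38; their roles and settings are not stated there. The authors deposited raw UMI counts per gene and barcode, a natural log table of 654 cells and 6933 genes, and the cell type of each cell. The natural log table by the authors held 7 of the 8 members (Gimap9 was not among its genes) and was used only as a check: in 111 of 111 cells with 2 or more members, 1 factor per cell (tolerance 0.001) turned its values back into the counts.

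Raw counts were summed per library over annotated cells, over T and NK cells, or over all barcodes, with no further filter on cells and no doublet caller. edgeR 4.0.16 (R 4.3.3) fitted 4 group means by quasi-likelihood with scaling by the trimmed mean of M-values, over all genes passing filterByExpr (annotated cells, all barcodes) or a total of 20 UMIs (T and NK cells). P-values were adjusted by Benjamini-Hochberg over every gene tested; limma 3.58.1 was loaded by edgeR. The steps were tested on simulated data. DESeq2 1.42.0, other scalings, filters, depths, cells summed and libraries left out were alternatives. Levels by cell type and the split into number and level are descriptions with no test, and their intervals (95%) cover counting error only. Of 17580 identifiers, 17520 had a symbol. All 8 members are named whatever their call; the genes named for likeness are the 10 with the highest r. The members and gene lists were chosen with earlier results of these data known. Same-letter aliquots deviated together at correlations of -0.03 to 0.24, the highest between the groups at 37C in annotated cells. The main fit left the letter out, and a fit with it was 1 of the alternatives.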

Additional observations from a re-analysis of the deposited data

Results flagged for a closer look

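In the 48 sets of 4 libraries examined (8 members, 2 temperatures, 3 sums of counts), 1 library stood far from the other 3: aliquot A of 4C with inhibitor had 510 CPM of Gimap6 in all barcodes, from 29 UMIs, while the other 4C libraries lay between 308 and 329 CPM. Chance gives about 1 such flag in 20 sets.

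The difference between 37C and 4C was itself different with and without actinomycin D for 3 members in all barcodes, by the interaction term: -1.78 for Gimap3, -1.39 for Gimap4 and -1.80 for Gimap8 on the log2 scale. T and NK cells made up 14.2% ± 4.98 of annotated cells at 37C with inhibitor and 33.7% ± 9.51 at 37C without it, against 59.4% ± 5.01 at 4C with inhibitor and 48.6% ± 3.95 at 4C without it (SD, 2 libraries each); the part of these shares in the interaction was not tested.

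Barcodes under 50 UMIs, which have no annotated type, held family transcripts at 13.4 per 10000 UMIs at 37C and 43.4 at 4C (means of 4 libraries). Annotated tumour cells held 0.907 over the 8 libraries.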

How the results depend on the processing

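In T and NK cells, 0 members were called in any of the 6 contrasts under any alternative. In annotated cells at 37C against 4C, the main count of 4 became 8 with all barcodes, 2 with aliquots summed and 0 with libraries thinned to the smallest total, and 1 to 5 with a library left out. With inhibitor the main count of 3 became 8 with all barcodes, 0 with thinning and 0 to 5 with a library left out. Without inhibitor 0 became 6 with all barcodes. For the inhibitor at 37C, 0 became 4 with all barcodes, 1 with a total of 20 UMIs, 1 with no filter and 0 to 1 with a library left out. The interaction went from 0 to 3 with all barcodes. At 37C against 4C averaged over inhibitor, Gimap4 passed in annotated cells under every alternative run except thinning, and Gimap3 lost its call in 10 of 16. Over all genes at 37C against 4C, DESeq2's Wald test called 43 higher and 21 lower in annotated cells, where edgeR called 93 and 42, and 0 in T and NK cells, where edgeR called 11 higher and 4 lower. The replicate block (aliquot letter) left the count at 4 at 37C against 4C, with Gimap6 called and Gimap3 not.

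Within T and NK cells the fold change of Gimap3 turned positive with DESeq2 (0.018), NK cells alone (0.057), T cells alone (0.027), no filter (0.16) and the replicate block (0.089), and ran from -0.21 to 0.48 with a library left out. That of Gimap5 was -0.019 with the replicate block and ran from -0.62 to 0.42 with a library left out. That of Gimap6 was 0.21 in T cells alone. With a library left out, Gimap7 ran from -2.02 to -0.61 and Gimap9 from -3.48 to -1.32. The causes were not tested. Thinning to 300 in place of 200 UMIs, which leaves more UMIs per cell, raised the share of T cells with a family UMI to 53.4%. Family UMIs per cell gave a log2 ratio of 0.66 for 37C against 4C, where UMIs per 10000 gave -0.51. Depth limits the members most: Gimap1 had 22 UMIs and Gimap9 42 in annotated cells.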
